A study of Mus musculus with 35 samples.

Results

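The cytosolic ribosomal proteins are the proteins that build the large and the small subunit of the ribosome in the cytoplasm. Their messenger RNAs were followed here in hematopoietic stem/progenitor cells (HSPCs) from the bone marrow of WT and JMJD1B-/- mice. Members were taken by name from the deposited RNA-seq table, as every name that begins with Rpl, Rps, Rplp or Rpsa and has the form of a ribosomal protein symbol, with the kinases named Rps6k left out. Of 11982 gene names in the table, 84 met this rule. By name, 46 belong to the large subunit, 31 to the small subunit and 6 are paralog-type names (Rpl7l1, Rpl22l1, Rpl36al, Rpl39l, Rps27l and Rps4y2). The remaining name, Rps19bp1, belongs to a protein that binds Rps19 and is not itself part of the ribosome. The rule used names alone and no expression value.

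JMJD1B, encoded by Kdm3b, is a histone demethylase that the study examined in hematopoiesis. The mice carried a gene-trap knockout, an insertion that cuts a transcript short, on the mixed 129P2xC57BL/6J background, and the WT group had the same background. The study used adult mice of both sexes. Polyadenylated RNA was sequenced in 2 libraries of each genotype, and the labels do not say whether the 2 libraries of a genotype came from separate mice, so the tests measure the spread between these libraries.

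A ribosome holds 1 copy of most of its proteins, and the cell makes them in matched amounts. Their mRNAs are among the most abundant of a dividing cell, and most begin with a short stretch of C and T bases, the 5′ terminal oligopyrimidine (TOP) motif, through which mTORC1 and LARP1 control their translation. In blood formation they are known from Diamond-Blackfan anemia, in which the loss of 1 allele of a ribosomal protein gene blocks the red cell lineage, and from the 5q- syndrome, which involves RPS14.

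The start of the gene is shown for 7 members on which the results below turn, those with the larger differences (Rps26, Rpl14, Rpl26 and Rplp0), the most even paralog (Rpl22l1) and highly expressed members (Rpl4 and Rps9). Each window holds 30 bases of the RefSeq sequence of assembly GRCm38.p6, 15 before and 15 from the annotated transcript start, and capitals mark the longest run of C and T. They lie at chr10:128626492-128626521 (Rps26, minus strand), chr9:120571502-120571531 (Rpl14, plus), chr11:68901551-68901580 (Rpl26, plus), chr5:115559452-115559481 (Rplp0, plus), chr3:28805493-28805522 (Rpl22l1, plus), chr9:64173372-64173401 (Rpl4, plus) and chr7:3704026-3704055 (Rps9, plus).
Rps26: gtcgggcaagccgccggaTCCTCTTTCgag
Rpl14: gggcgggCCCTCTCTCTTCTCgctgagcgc
Rpl26: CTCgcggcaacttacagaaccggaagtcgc
Rplp0: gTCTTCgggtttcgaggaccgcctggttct
Rpl22l1: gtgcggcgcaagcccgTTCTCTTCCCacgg
Rpl4: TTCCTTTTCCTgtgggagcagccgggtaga
Rps9: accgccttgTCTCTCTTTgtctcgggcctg

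The run of C and T spanned the annotated start in Rpl14, with 14 bases, and in Rps9, with 9 bases. It lay just after the start in Rps26 and Rpl22l1, with 9 and 10 bases, and at the upstream edge of the window in Rpl4. Rpl26 and Rplp0 held no run over 5 bases in these windows, and annotated starts need not be the starts used in these cells. A window was found for 63 of the 84 members, 1 of them through a synonym, and 42.9% of these genes held a run of at least 8 bases, against 13.9% of 27025 genes with a window. Over the whole 300 bases (250 before and 50 after the start), 41.3% of the members and 9.93% of all genes held CCGGAAG, the core of sites for ETS factors, on either strand. The letters AAGATGGC, the core of the YY1 site, were present in 9.52% and 3.19%, and both motifs can share the letters AAG. Among the tested members with a window, the 27 with a run of at least 8 bases had log2 fold changes with a median of 0.30 and the 35 with a shorter run of 0.28, so the printed starts and the fold changes below showed no visible order.

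Levels are given in RPKM, read numbers scaled to transcript length and to library depth, which allows genes to be compared. The depth, inferred from low values that form ratios of whole numbers, was 17500000 and 24600000 reads in the WT libraries and 6110000 and 21000000 reads in JMJD1B-/- replicates 1 and 2. The first estimate for replicate 1 of the knockout was halved, because at it the read numbers of 20 of 20 genes checked were even, against 8 of 23 to 14 of 21 in the other libraries. With this correction, which the depth rests on, it was the shallowest library, in which 3 reads on 1 kilobase are worth 0.491 RPKM, against 0.122 to 0.171 in the others. Kdm3b itself was listed at 31.0 and 24.3 RPKM in the WT libraries and at 4.00 and 4.63 in the JMJD1B-/- libraries, as the labels require. WT replicate 2 stood apart as the single library with Xist RNA (332 RPKM, at most 0.05 in the others), so it held RNA of female mice where the others did not, and counts without it are given with the scalings below.

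The ribosomal protein mRNAs were very abundant in WT HSPCs. Over the 77 members of the subunits, WT mean levels ran from 24.4 RPKM (Rps15a) to 1190 RPKM (Rps3a) with a median of 333 RPKM, and 72 of 77 exceeded 100 RPKM. The median member lay above 98.9% of the gene names in the table. The lowest and highest differed by 48.7-fold, a range that rests on Rps15a, which together with its pseudogene names had 186 and 153 RPKM in the WT libraries. The next lowest, Rpl37, had a WT mean of 45.8 RPKM. This order of levels was nearly the same in each library, with a correlation across genes of 0.966 to 0.985 between any 2 libraries in log2 RPKM (77 members, which are not independent replicates).

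Rps3a, a small-subunit protein near the mRNA exit channel, was listed at 1216 and 1163 RPKM in WT and at 1114 and 1413 in the knockout libraries. Rpl4, which lines the exit tunnel of the large subunit, stood at 928 and 1089 against 1084 and 1161 RPKM. Rps9 had 835 and 959.5 against 928 and 1021 RPKM. In these most abundant members the 2 genotypes overlapped, and so they did for Rps24 (797 and 834 against 781 and 932 RPKM) and Rps12 (765 and 756 against 741 and 1153 RPKM). The log2 fold changes of the 5 ran from 0.07 (Rps24) to 0.28 (Rps12), and all 5 were below 0 under quantile normalization.

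Some low levels are uncertain, since reads may be shared with similar copies, which was not tested. The table also lists 5 pseudogene names of ribosomal proteins. Rps15a, the lowest of the 77 subunit members, was listed at 24.0, 24.9, 25.7 and 35.2 RPKM in the order WT replicates 1 and 2 and JMJD1B-/- replicates 1 and 2, while its pseudogene Rps15a-ps6 was listed at 86.8, 70.8, 72.9 and 112 RPKM. Rplp2-ps1, at 515.6 to 569 RPKM, lay above its parent Rplp2, at 219 to 309 RPKM. How reads that fit several places were assigned is not given in the sources used here, so the levels of Rps15a, Rplp2, Rpl34 and Rps19 may be split between copies. None of the 5 pseudogene names reached an unadjusted p under 0.05, where 3.81% of all genes were higher and 6.33% lower. All 5 overlapped between genotypes, against 57.1% of all genes, and 5 names are too few to set them apart.

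The comparison of genotypes asked whether loss of JMJD1B changes these mRNAs. Most members were somewhat higher in JMJD1B-/- HSPCs, no member was lower at an unadjusted p under 0.05, and the height of the shift differed between the 2 knockout libraries. Of the 83 members tested, 81 had a log2 fold change (JMJD1B-/- over WT) above 0, against 47% of the 11863 genes tested. The median was 0.28 for the members, with the middle of the range from 0.19 to 0.43, and -0.02 for all genes. With limma, 10 members were higher and 0 lower at an unadjusted p under 0.05, against 3.81% and 6.33% of all genes. After Benjamini-Hochberg adjustment over all genes 0 members passed 0.05, the lowest adjusted p being 0.28, where 0.00843% of all genes were higher and 0.0337% lower. The member Rpl39l, listed at 0, 0.0504, 0 and 1.83 RPKM, fell under the filter on low values (a mean of 0.5 RPKM) and was not tested.

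Both knockout libraries lay above both WT libraries in 48 members (57.8%), against 20.1% of all genes. In 0 members did both lie below, against 22.7% of all genes, and 35 members overlapped. The 2 knockout libraries differed in this. JMJD1B-/- replicate 2 exceeded both WT libraries in 81 of the 83 members (97.6%), against 46.5% of all genes, and replicate 1 in 49 (59.0%), against 29.6%. Replicate 1 was below both WT libraries in 13 members, 9 of them of the small subunit, where 49% of all genes were below.

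**Figure D1:**
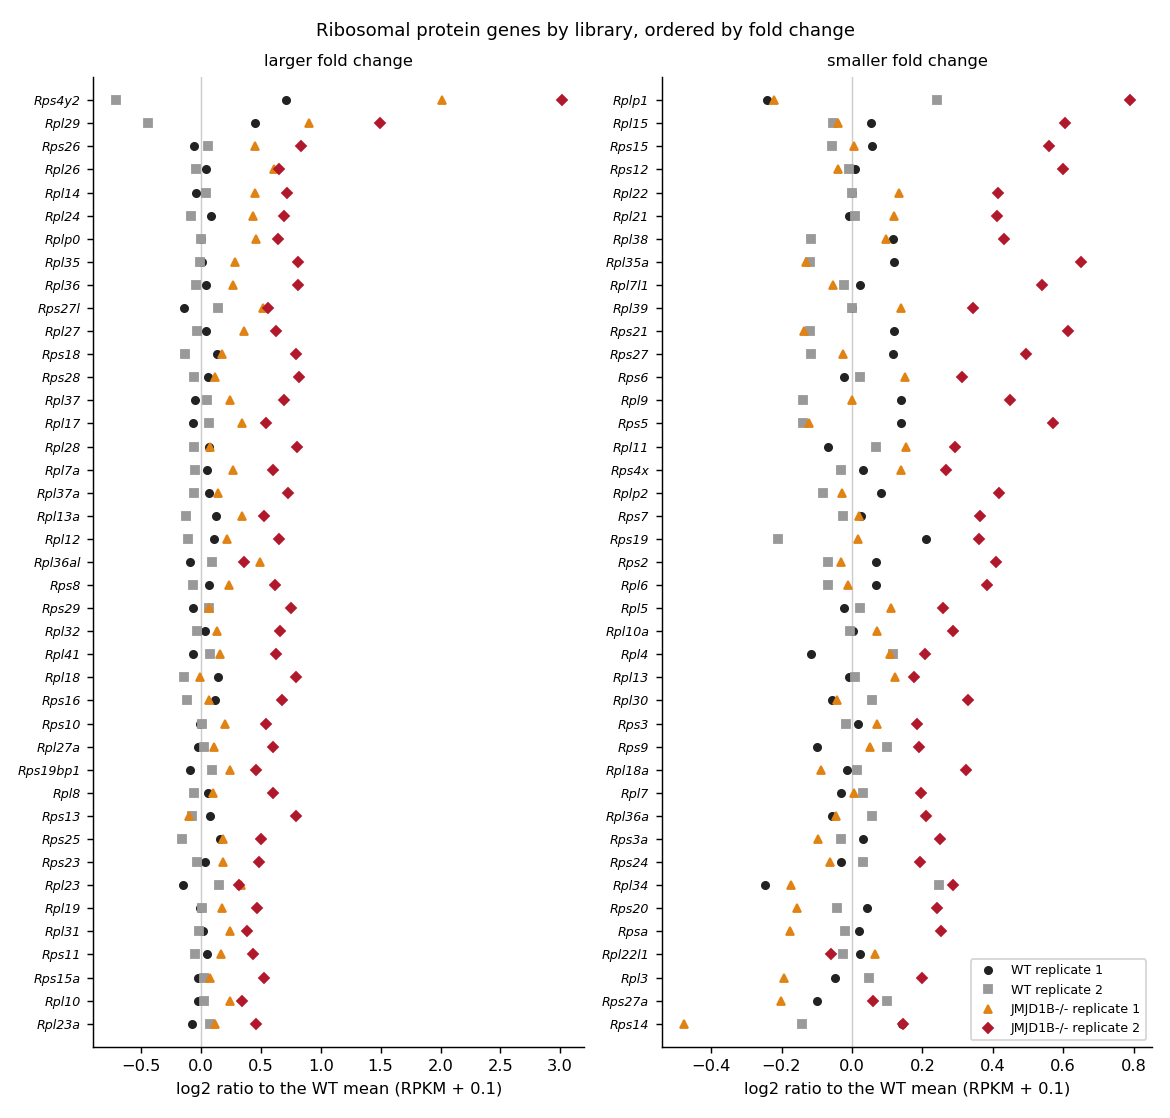
Each row is 1 of 82 tested members, and the points give its log2(RPKM + 0.1) in each of the 4 libraries relative to the mean of the 2 WT libraries, with the larger fold changes on the left panel and the smaller on the right (the x axes differ). JMJD1B-/- replicate 2 lies to the right of both WT libraries in 80 rows and replicate 1 in 48.

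Relative to the WT mean, the members' median log2 ratio was 0.02 and -0.02 in the WT libraries, 0.11 in JMJD1B-/- replicate 1 and 0.48 in replicate 2. All genes had medians of -0.10 and 0.09 in these knockout libraries, so that the members stood 0.21 and 0.40 above the median gene. This difference from the median gene was 0.30 on average. A permutation test over 4 libraries gave a two-sided p of 0.33, the smallest that 2 against 2 can give. The ratios keep the WT mean as reference under each relabelling, so the 2 WT values mirror each other around 0. This test is therefore not exact, and its p is a description. Set against the 1108 other genes among the 10% with the highest levels, the members stood at 0.08 and -0.08 in the WT libraries. In the knockout libraries they stood at 0.10 and 0.28, 0.19 higher on average (two-sided p = 0.33 in the same permutation test). Replicate 1 of the knockout barely exceeded WT replicate 1. Of those 1108 genes, 8.57% were higher at an unadjusted p under 0.05 and 31.9% higher without overlap.

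The result depended on how libraries were brought to 1 scale. When the libraries were given equal distributions by quantile normalization, the members' median fell to 0.07, 54 of 84 members were above 0, and Rps3a and Rps27a were lower at an unadjusted p under 0.05, where 5.99% of all genes were lower and 5.61% higher. The median of the small subunit was then 0.01 and that of the large subunit 0.08, where all genes had 0.02. The 10 members at an unadjusted p under 0.05 kept that call there, beside 1 more. With equal sums of RPKM, a scaling chosen after the data were seen, the members' median was 0.16, but the median of all genes was -0.15, and 70 of 83 members stayed above 0. The 10 members were above 0 under each of the 16 other settings. They were chosen by these same values, and some settings leave the fold change as it is. That count and the kept calls are therefore no separate support. Without JMJD1B-/- replicate 1, 42 members were higher at an unadjusted p under 0.05, where 11.6% of all genes were higher and 11.5% lower. Without JMJD1B-/- replicate 2 the number was 6 (6.15% of all genes), without WT replicate 1 it was 3 (1.07%), and without WT replicate 2 it was 2 (2.09%).

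**Figure D2:**
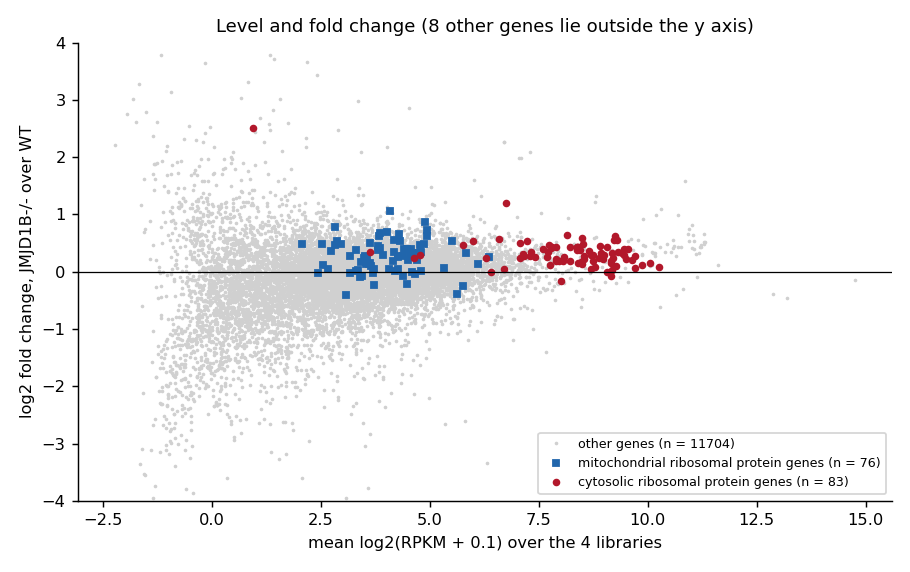
The x axis gives the mean log2(RPKM + 0.1) over the 4 libraries and the y axis the log2 fold change of JMJD1B-/- over WT, for cytosolic ribosomal protein genes (red circles), mitochondrial ribosomal protein genes (blue squares) and other genes (grey). Nearly all red circles lie at the high end of the level axis and just above 0, 81 of 83 of them with a fold change above 0.

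In the large subunit all 46 members had a log2 fold change above 0, with a median of 0.30. Of these, 7 (15.2%, against 3.81% of all genes) were higher at an unadjusted p under 0.05, and 31 (67.4%, against 20.1%) did not overlap between genotypes. The median was 0.33 and 0.31 without WT replicates 1 and 2, where all genes had -0.02 and -0.03. It was 0.50 and 0.13 without JMJD1B-/- replicates 1 and 2, where all genes had 0.09 and -0.10. The calls changed with the library left out. Under quantile normalization 31 of 46 were above 0. Rpl26, which also binds the p53 mRNA, had 501 and 471 RPKM in WT and 741 and 764 RPKM in knockout libraries, a log2 fold change of 0.63 ± 0.20 (SE) with an adjusted p of 0.39 in limma. Both knockout libraries were raised by about the same amount, 0.61 and 0.65 over the WT mean on the log2 scale. Rpl14 had 284 and 302 RPKM against 400.4 and 482 RPKM, a log2 fold change of 0.59 ± 0.20, and its knockout libraries lay well clear of the WT libraries, which differed little.

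Rpl29 had the largest difference of the members over 10 RPKM, at 95.9 and 51.6 RPKM in WT and 131 and 198 RPKM in knockout libraries (log2 fold change 1.20 ± 0.32, adjusted p = 0.32 in limma). Its WT libraries were themselves far apart, and the genotypes did not overlap. The 3 others of the large subunit at an unadjusted p under 0.05, apart from Rplp0, were Rpl24, Rpl27 and Rpl36, of which Rpl24 and Rpl36 were chosen after their values were seen. Rpl24, at the interface of the subunits, had 83.5 and 74.1 against 106 and 127 RPKM. Rpl27, a Diamond-Blackfan anemia protein, had 117 and 111 against 146 and 176 RPKM. In Rpl36, at 128 and 121 against 150.0 and 219 RPKM, the difference lay mostly in replicate 2.

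The P-stalk, which recruits the elongation factors to the ribosome, is built from Rplp0 and dimers of Rplp1 and Rplp2. Rplp0, the stalk's base, was listed at 517 and 516 RPKM in WT and at 709 and 807 RPKM in knockout libraries (log2 fold change 0.55 ± 0.20, adjusted p = 0.44 in limma). Rplp1 was listed at 539.5 and 753 against 547 and 1102 RPKM, and Rplp2 at 245 and 219 against 227 and 309 RPKM. The base was thus set apart by genotype while both dimer proteins overlapped, and the log2 fold changes of Rplp1 and Rplp2 were 0.28 ± 0.35 and 0.19 ± 0.21. That Rplp0 differed from its partners was not tested.

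Rpl5 and Rpl11 form the 5S RNP with 5S rRNA, and they bind MDM2 when ribosome assembly fails. Rpl5 had 394 and 406 RPKM in WT and 432 and 478 RPKM in knockout libraries. Rpl11 had 326 and 358 against 380.0 and 418 RPKM. Both were higher in both knockout libraries by small amounts, with log2 fold changes of 0.18 ± 0.19 and 0.22 ± 0.19, neither of which reached an unadjusted p under 0.05, and under quantile normalization both were below 0 (-0.10 and -0.07). At the other end of the large subunit was Rpl3, beside the peptidyl transferase center, at 514 and 550.2 against 465 and 611 RPKM and a log2 fold change of 0.00.

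In the small subunit 29 of 31 members had a log2 fold change above 0, with a median of 0.24. Only Rps26 was higher at an unadjusted p under 0.05 (3.23%, near the 3.81% of all genes), and 13 of the 31 (41.9%, against 20.1%) did not overlap. The median of the small subunit was 0.34 and 0.22 without WT replicates 1 and 2. It was 0.48 and 0.05 without JMJD1B-/- replicates 1 and 2, and the calls changed with the library left out. Under quantile normalization 17 of 31 were above 0. Rps26, which lies at the mRNA exit channel and is affected in Diamond-Blackfan anemia, had 217 and 236 RPKM in WT and 309.6 and 403 RPKM in knockout libraries. Its log2 fold change was 0.64 ± 0.20 with an adjusted p of 0.39 in limma, and both knockout libraries lay above the WT range.

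The 2 members with a fold change below 0 both belong to the small subunit. Rps14, the protein of the 5q- syndrome, had 301 and 247 RPKM in WT and 196 and 301 RPKM in knockout libraries, so that replicate 1 was low and replicate 2 equal to the higher WT library (log2 fold change -0.17 ± 0.25). Rps27a, made as a fusion to ubiquitin, had 542 and 622 against 505 and 606 RPKM (-0.07 ± 0.21). Rpsa, which also serves as a laminin receptor and is mutated in isolated congenital asplenia, had 580.0 and 565 against 506 and 682 RPKM (0.04 ± 0.22). In each of these 3 the knockout libraries were apart by more than the 2 genotypes were.

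The difference between the subunits did not separate the genotypes. The median of the large subunit minus that of the small one was 0.07 and 0.02 in the knockout libraries and -0.03 and 0.03 in the WT libraries. The permutation test over 4 libraries, with the WT reference held fixed and so not exact, gave a two-sided p of 0.667.

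Diamond-Blackfan anemia proteins were a list of 19, all of them listed in the table. All 19 had a log2 fold change above 0, from 0.07 (Rps24) to 0.64 (Rps26), with a median of 0.30 beside 0.28 for all members. At an unadjusted p under 0.05 stood 3 (Rps26, Rpl26 and Rpl27; 15.8%, against 3.81% of all genes), and 11 (57.9%, against 20.1%) did not overlap between genotypes. The median of the list was 0.35 and 0.29 without WT replicates 1 and 2. It was 0.55 and 0.11 without JMJD1B-/- replicates 1 and 2, and the calls changed with the library left out. Under quantile normalization 15 of the 19 were above 0. Rps19, the protein most often affected in that disease, had 259 and 194 RPKM in WT and 227 and 288 RPKM in knockout libraries, so that the genotypes overlapped. The 2 WT libraries differed more in Rps19 than the genotype means did (226 ± 46.0 against 257 ± 43.1 RPKM, SD, n = 2 libraries each).

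Among the others of this list, some were higher in both knockout libraries. Rps10 had 304 and 307 RPKM in WT and 351 and 447 RPKM in knockout libraries. Rpl31 had 127 and 124 against 149 and 163 RPKM, and Rpl35 had 501 and 494 against 606 and 871 RPKM. Their log2 fold changes ran from 0.31 (Rpl31) to 0.55 (Rpl35), and none had an unadjusted p under 0.05. In others JMJD1B-/- replicate 2 alone was high. Rpl35a was listed at 204 and 173 RPKM in WT and at 171 and 295 RPKM in knockout libraries, Rpl15 at 147 and 137 against 138 and 216 RPKM, and Rps29 at 181 and 198 against 198 and 318 RPKM. For these 3, the mean difference between genotypes rested on that library, and JMJD1B-/- replicate 1 lay within or below the WT range.

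Paralog-type members ran from no difference to the largest one. Rps27l, a p53 target gene in many cells, was listed at 47.9 and 58.1 RPKM in WT and at 75.6 and 77.9 in the JMJD1B-/- libraries (log2 fold change 0.54 ± 0.18, adjusted p = 0.42 in limma). Its partner Rps27 had 134 and 114 against 122 and 174 RPKM and overlapped between genotypes. The knockout libraries were close to each other in Rps27l and far apart in Rps27.

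Rpl22l1, whose level Rpl22 is known to control, was the most even member, at 86.4 and 83.6 RPKM in WT and 89.0 and 81.5 RPKM in knockout libraries. Rpl22 had 129 RPKM in each WT library and 142 and 172 RPKM in knockout libraries. Rpl36al was listed at 192 and 218 against 288 and 262 RPKM, and its X-linked partner Rpl36a at 412 and 446 against 416 and 496 RPKM. Rpl36al is the member in which replicate 1 was furthest above replicate 2. Rpl7l1 had 23.2, 22.5, 22.0 and 33.2 RPKM in the order of the libraries.

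Rps4y2, an older name of Rps4l, had the largest log2 fold change of the members, 2.51 ± 0.64, but a very low level of 1.21 and 0.389 RPKM in WT and 3.13 and 6.36 RPKM in knockout libraries. Its close relative on the X chromosome, Rps4x, was listed at 757 and 724 against 815 and 891 RPKM. Whether reads are shared between both genes was not tested, and the level of Rps4y2 is uncertain. The adjusted p of Rps4y2 was 0.28 in limma.

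The 4 X-linked members (Rpl10, Rpl36a, Rpl39 and Rps4x) had log2 fold changes of 0.08 to 0.29, and 1 of the 4 was above 0 under quantile normalization. Rpl39 had 435 RPKM in each WT library. In WT replicates 1 and 2, Rpl10 had 371 and 384 RPKM, Rpl36a 412 and 446 RPKM and Rps4x 757 and 724 RPKM. WT replicate 2, the library that expressed Xist, was thus higher in Rpl10 and Rpl36a and lower in Rps4x. Whether the sex of the mice bears on these levels was not tested.

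Fau and Gnb2l1, which encode ribosomal proteins under names that escape the rule, gave values in the same range. Fau, made as a fusion of the small-subunit protein eS30, was listed at 141 and 127 RPKM in WT and at 179.9 and 219 RPKM in knockout libraries (log2 fold change 0.57 ± 0.19). Gnb2l1, the symbol in the table for the scaffold protein RACK1, had 554 and 559 against 593 and 811 RPKM. Both lay above both WT libraries in both knockout libraries, and Fau reached an unadjusted p under 0.05.

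Mitochondrial ribosomal proteins, which build the separate ribosome of the mitochondrion and carry no TOP motif as a class, gave nearly the same median. Of 76 genes, 63 had a log2 fold change above 0, the median was 0.27, and 11 (14.5%, against 3.81% of all genes) were higher and 0 lower at an unadjusted p under 0.05. Without JMJD1B-/- replicate 1 the median was 0.49. Without JMJD1B-/- replicate 2, 41 of 76 were above 0, with a median of 0.11. The median was 0.23 and 0.27 without WT replicates 1 and 2, and the calls changed with the library left out. In the 2 knockout libraries their median ratio to the WT mean was 0.11 and 0.49, beside 0.11 and 0.48 for the cytosolic members. The cytosolic median minus the mitochondrial one was -0.00435 on average (permutation test over 4 libraries with the WT reference held fixed, not exact, two-sided p = 1). Under quantile normalization the mitochondrial median stayed at 0.29, where that of the cytosolic members was 0.07.

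Other mRNAs with a TOP motif, a list of 17 that code for elongation and initiation factors and similar proteins, had a median of 0.14, with 0 at an unadjusted p under 0.05. Under quantile normalization the median was -0.01, with 3 of 17 lower at an unadjusted p under 0.05 (5.99% of all genes). Leaving out JMJD1B-/- replicate 1 gave 0.34, with 3 higher (11.6% of all genes), and the median was -0.08 without JMJD1B-/- replicate 2, 0.09 without WT replicate 1 and 0.24 without WT replicate 2, so no direction was fixed for this list. Eef1a1, the most abundant elongation factor, had 2927 and 3075 RPKM in WT and 2944 and 3625 RPKM in knockout libraries, and Eef2 had 523 and 493 against 557 and 782 RPKM. The members exceeded the TOP list by 0.17 on average (permutation test with the WT reference held fixed, not exact, two-sided p = 0.33). Of the mTORC1 pathway and the regulators of TOP mRNAs, 23 of 24 genes were tested, with a median of 0.11. At an unadjusted p under 0.05, 1 of them was higher (4.35%, near the 3.81% of all genes) and 0 lower, and without overlap of the genotypes 7 were higher and 6 lower (30.4% and 26.1%, against 20.1% and 22.7% of all genes). Chaperones and importers of ribosomal proteins had a median of 0.07 over 16 tested genes, with 0 at an unadjusted p under 0.05. The 1108 other genes among the 10% with the highest levels had a median of 0.11.

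**Figure D3:**
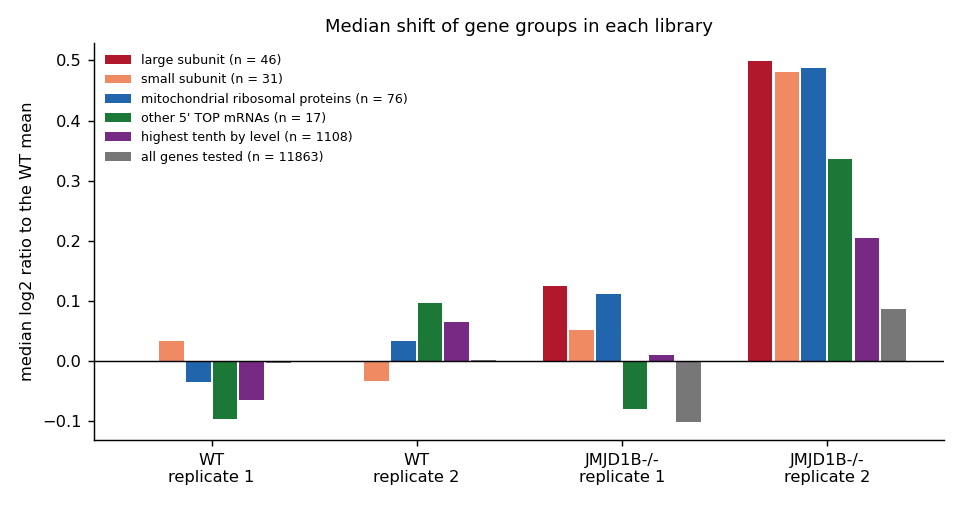
Bars give the median log2 ratio to the WT mean of the genes of 6 groups in each of the 4 libraries, with no error bar because each is 1 value of 1 library. Both ribosomal protein subunits and the mitochondrial ribosomal proteins stand near 0.5 in JMJD1B-/- replicate 2 and at 0.05 to 0.13 in replicate 1, where the median of all genes is -0.10.

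The 84 members together held 7.41% and 7.70% of the summed RPKM of all listed genes in the WT libraries and 7.81% and 8.98% in JMJD1B-/- replicates 1 and 2. The means were 7.56% ± 0.201 and 8.39% ± 0.826 (SD, n = 2 libraries each), and both knockout libraries were above both WT libraries (exact permutation test, two-sided p = 0.33). The share of the large subunit was 3.97% and 4.22% against 4.38% and 5.01%. The share of the small subunit, 3.35% and 3.38% against 3.30% and 3.85%, overlapped. Under quantile normalization the difference in the whole share, 0.836 percentage points, shrank to 0.00851.

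Markers of other cell types and of dividing cells also differed between the libraries, and not all in the direction of the members. The counts below stand beside 3.81% of all genes higher and 6.33% lower at an unadjusted p under 0.05. Of 20 proliferation genes, all had a log2 fold change above 0, with 3 at an unadjusted p under 0.05. Their median was 0.27, and 0.13 without WT replicate 1 and 0.42 without WT replicate 2. Their summed RPKM was 1316, 1547, 1674 and 1746 in the order WT replicates 1 and 2 and JMJD1B-/- replicates 1 and 2. Of the erythroid markers, 16 were tested and 14 were higher at an unadjusted p under 0.05, with summed RPKM of 928, 1339, 2421 and 3656 in the same order. Stem and progenitor markers, 15 genes, had 6 lower at an unadjusted p under 0.05 and sums of 559, 530.0, 362 and 479. Granulocyte markers, 10 tested, had 6 lower and 3 higher and sums of 305, 207, 138 and 64.0. The lower ones included Mpo, at 131 and 79.0 against 21.4 and 12.1 RPKM. The higher ones were S100a8 (7.24 and 4.74 against 8.71 and 10.6 RPKM), S100a9 (2.79 and 1.41 against 8.01 and 10.8 RPKM) and Retnlg. S100a8 and S100a9 were highest in JMJD1B-/- replicate 2, where the sum was lowest, so the list had no common direction.

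The erythroid sum and the members' summed RPKM, 29223 and 29177 in the WT libraries and 31277 and 39779 in the knockout libraries, were both highest in JMJD1B-/- replicate 2. The proliferation sum was highest there too, but differed less between the 2 knockout libraries than the members did. T and NK cell markers stood apart in JMJD1B-/- replicate 1, at 111 RPKM against 24.7 to 41.1 in the other libraries, where Il7r gave the largest value (39.4 RPKM). Of the B cell list, Blk had 24.6 RPKM in that library against 0.613 to 3.71 in the others, while Cd22 and Cd79b were below both WT libraries in both knockout libraries. No listed erythroid, stem and progenitor or proliferation marker was at 0 in any library, while the B cell gene Vpreb3 was at 0 in the libraries other than JMJD1B-/- replicate 1. The part of these cell types in the result was not tested, and in bulk RNA a change in the number of cells of a type cannot be told apart from a change in the RNA of each cell.

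**Figure D4:**
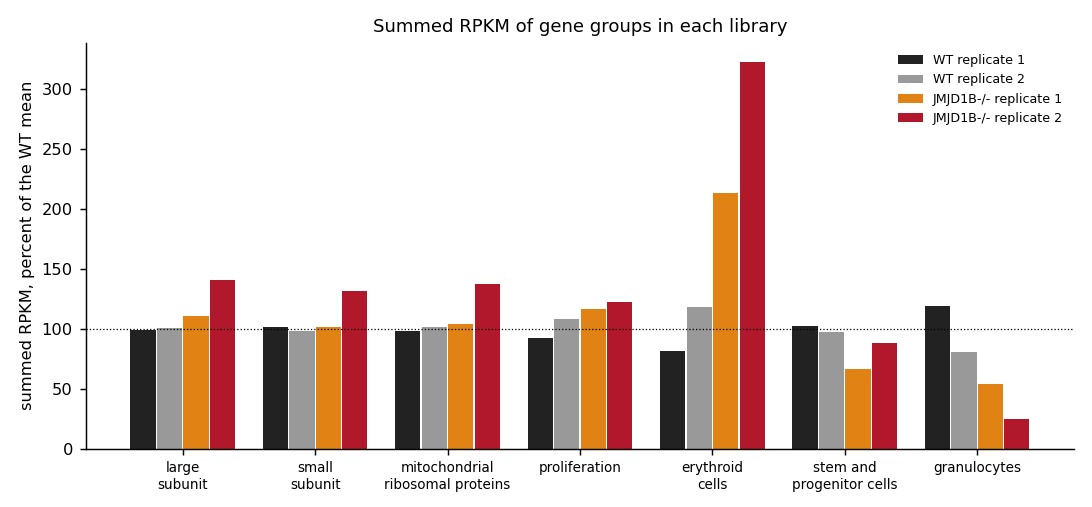
Bars give the summed RPKM of the listed genes of each group in each library as a percent of the mean of the 2 WT libraries (dotted line at 100), with no error bar because each is 1 library. The cytosolic and the mitochondrial ribosomal proteins are highest in JMJD1B-/- replicate 2, where the erythroid sum is also highest and the granulocyte sum lowest.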

How the data were processed

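RNA-seq of HSPCs was available as 1 table in RPKM for 2 WT and 2 JMJD1B-/- libraries. The deposited RPKM values were read as holding an added 1, which was subtracted here. The labels do not state it, and it was taken from the values, whose lowest is exactly 1 and which form ratios of whole numbers between libraries only after the subtraction. RNA was polyadenylated and libraries were made with a TruSeq RNA kit V2. The submitters' processing notes name TopHat2, Novoalign and mm9. The counting program, the annotation and the handling of reads with several matches are not given in the sources used here. The table has 12024 entries, and 84 entries that share 42 names were averaged, none of them a member. The highest value of an entry was never under an RPKM of 1, so names under it were not analysed.

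Genes with a mean of at least 0.5 RPKM were tested on log2(RPKM + 0.1), a scale that understates changes of low genes, with limma 3.58.1 in R 4.3.3 (trend, no replicate term), with Benjamini-Hochberg adjustment over 11863 genes. limma was also run on simulated data, which checks the fitting code and not the error rate in these libraries. Shares of summed RPKM were tested by the exact permutation test over libraries. Median ratios were tested by the same relabelling, but with the WT mean kept as reference, so those tests are not exact. Tables and plots were made with Python 3.11.15, pandas 2.3.3, numpy 2.4.6, scipy 1.17.1 and matplotlib 3.10.9. Promoter windows came from RefSeq (GRCm38.p6). Depth was inferred from genes whose values form ratios of whole numbers, and it covers counting error alone. Read counts were not recovered for all genes, so no count test was run.

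The members and the 18 gene lists were chosen with earlier results of these data known. Named with values were the members of the lists on ribosomal proteins that bear on a result, the 5 lowest and 5 highest fold changes, the 5 highest WT levels and members at an unadjusted p under 0.05. Rps4y2 was placed with the paralogs after its name was seen. The chromatin samples of the series were not analysed here, and 2 genes are not reported by name.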

Additional observations from a re-analysis of the deposited data

How the results depend on the processing

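Of 16 other settings, 81 members kept a log2 fold change above 0 under pseudocounts of 1 and 0.01, a mean of at least 1 RPKM, both median-ratio scalings, the Student test gene by gene, limma with no trend and the highest entry of each name, and 82 without a filter. The number of members higher at an unadjusted p under 0.05, 10 in the report, was 22 with median-ratio scaling over all genes, 22 with scaling factors from genes other than the members, 4 without a trend and 5 with the Student test, where 5.31%, 5.39%, 2.92% and 2.93% of all genes were higher, against 3.81%. Of the 10, all kept their call under both median-ratio scalings and quantile normalization, 4 without a trend, 2 with the Student test and 8 with equal sums. The 10 were picked by the main fit to these same values, so kept calls are no separate support. Leaving out each library in turn gave 2 to 42 higher members, a median of 0.11 to 0.49 and a difference in share of 0.252 to 1.42 percentage points; 15 members passed an adjusted p of 0.05 without JMJD1B-/- replicate 1 (with 336 higher and 653 lower genes in all, against 1 and 4), where the lone knockout library was assumed to vary like the WT libraries, and 59 stayed above 0 without JMJD1B-/- replicate 2. Quantile normalization gave 2 lower members, a median of 0.0735 and a difference in share of 0.00851. With equal sums of RPKM, added after seeing the data, 8 members were higher, and the unadjusted calls over all genes were 1231 lower and 273 higher, beside 751 and 452. Without 4 structural RNAs in the sum, also added later, the difference in share was 0.646. With quantile normalization the calls over all genes were 711 and 665.

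Of the 83 members, 28 changed sign under quantile normalization and 11 with equal sums of RPKM. Among the 43 members followed by name, those under quantile normalization were Rpl11 (-0.0657), Rpl22l1 (-0.118), Rpl3 (-0.221), Rpl36a (-0.172), Rpl39 (-0.0325), Rpl4 (-0.179), Rpl5 (-0.101), Rpl7 (-0.182), Rplp1 (-0.0519), Rps12 (-0.0414), Rps24 (-0.279), Rps3a (-0.343), Rps4x (-0.113), Rps9 (-0.222) and Rpsa (-0.237). With equal sums of RPKM they were Rpl22l1 (-0.121), Rpl3 (-0.122), Rpl36a (-0.0407), Rpl7 (-0.0239), Rps24 (-0.0586), Rps3a (-0.0476), Rps9 (-0.00355) and Rpsa (-0.0869). When libraries were left out in turn, 2, 4, 3 and 22 members changed sign without WT replicates 1 and 2 and JMJD1B-/- replicates 1 and 2, and the values of those followed by name ran from -0.0404 to 0.606 for Rpl15, from -0.0115 to 0.79 for Rpl18, from -0.0602 to 0.0658 for Rpl22l1, from -0.194 to 0.199 for Rpl3, from -0.129 to 0.651 for Rpl35a, from -0.0442 to 0.211 for Rpl36a, from -0.0531 to 0.538 for Rpl7l1, from -0.221 to 0.79 for Rplp1, from -0.0286 to 0.416 for Rplp2, from -0.0388 to 0.600 for Rps12, from -0.476 to 0.144 for Rps14, from -0.019 to 0.399 for Rps19, from -0.0621 to 0.194 for Rps24, from -0.0248 to 0.493 for Rps27, from -0.202 to 0.0603 for Rps27a, from -0.0951 to 0.249 for Rps3a and from -0.177 to 0.252 for Rpsa.

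Whether the replicate numbers pair the libraries is not known, because the labels name no shared litter or day. Same-numbered libraries deviated with a correlation across genes of -0.05 over all genes and -0.42 over the members, which does not decide it. With a replicate block, 11 members were higher at an unadjusted p under 0.05, where 4.81% of all genes were. Of the 10 members called in the main fit 9 kept that call, and Rplp0 lost it. Rpl29 alone passed an adjusted p of 0.05, while over all genes the adjusted calls went from 4 lower and 1 higher to 173 and 83. With 2 libraries of a genotype, the size of the shift was poorly fixed. The cause of its difference between the libraries, depth included, was not tested.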
